A study of Homo sapiens with 12 samples.

Results

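MOLT4 cells, a wild-type T lymphoblast line grown from a T-cell leukaemia, were exposed to 0.1 µM of compound 955 for 6 h and compared with cells given the solvent DMSO for 6 h, by RNA sequencing of 3 samples each. The 6 samples came from a series of 12 that also held 3 samples of 955 at 0.1 µM for 1 h and 3 of SNS-032 at 1 µM for 6 h, all in the same cell line. All 5759 genes of the authors' deposited table were taken as members, of which 5727 could be matched to a gene symbol. DMSO was sampled at 6 h and no other time, so the 1 h comparison also rests on the 6 h DMSO samples, and the labels do not say whether the 3 samples of a group were separate cultures. The table gives each comparison as a log2 fold change, an average level in log2 CPM (counts scaled to a fixed library size), an F statistic, a p-value and an FDR, and no values of single samples, so that the spread between samples enters through the F statistic alone. The depth of each sample is therefore unknown here. Unless said otherwise, every log2 fold change and FDR given is that of the authors' deposited table, and implied standard errors (SE), approximate CPM and contrasts between treated groups were computed from it.

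Compound 955 is one of a group of molecules made for targeted protein degradation, with the kinase CDK9 as its intended target, and SNS-032 is an inhibitor of cyclin-dependent kinases that includes CDK9 among its targets. CDK9 pairs with a T-type cyclin to form P-TEFb, the kinase that releases RNA polymerase II from its pause just downstream of the start site, and much of cellular P-TEFb is held inactive by the noncoding 7SK RNA. When this release is blocked, messenger RNAs with a fast turnover are depleted first, which in leukaemia cells includes transcripts of short-lived oncoproteins such as MYC and MCL1. Sequencing reports each RNA as a share of the library, so a stable RNA can gain share while its amount per cell does not rise, and in bulk cells fewer cells of a type and less RNA per cell cannot be told apart.

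A gene was called higher or lower where its FDR was under 0.05 and its log2 fold change was at least 1 in size. By this rule 2026 genes were higher after 6 h of 955 (35.2% of the listed genes) and 2885 were lower (50.1%), and the remaining 848 (14.7%) passed in neither direction. The listed genes are nearly all past the threshold in at least 1 of the 3 comparisons of the table, so these shares describe that selection and not the whole transcriptome. Folds of 4 or more, a log2 change of at least 2, were reached by 712 genes upwards (12.4%) and by 910 downwards (15.8%). The median log2 fold change was -1.03 over all listed genes, 1.68 over those called higher and -1.63 over those called lower. The standard error implied by each fold change and its F statistic had a median of 0.237 on the log2 scale.

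**Figure D1:**
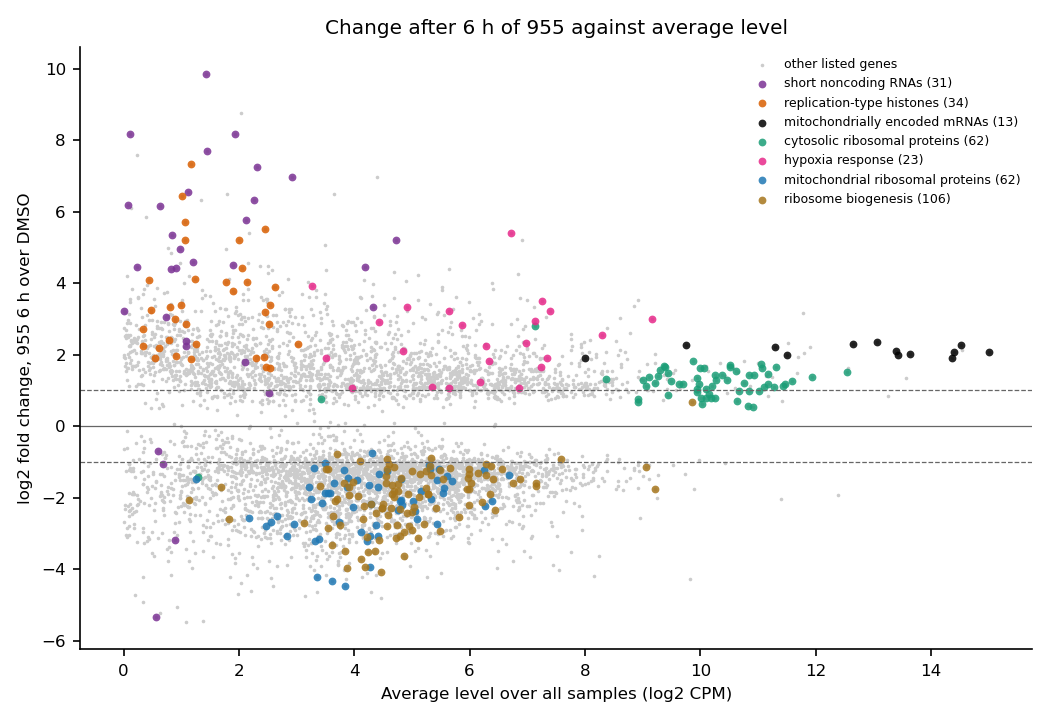
Log2 fold change of 955 at 6 h over DMSO (y axis) against the average level over all samples in log2 CPM (x axis) from the authors' deposited table, with 1 point per listed gene and dashed lines at the fold bound of the call. Short noncoding RNAs and replication-type histones lie high at low levels, mitochondrially encoded mRNAs and cytosolic ribosomal proteins lie above 0 at the highest levels, and mitochondrial ribosomal proteins and ribosome biogenesis genes lie below 0.

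The median deposited average level was 3.81 log2 CPM for genes called higher and 4.39 for genes called lower. Reading the deposited average and fold changes together gives an approximate CPM for each group. By that estimate the median gene called higher stood at 5.5 CPM in DMSO and the median gene called lower at 35.6 CPM. The estimate uses the same fold changes as the calls, so it places genes that rose lower in DMSO by construction. The 13 messenger RNAs of the mitochondrial genome, which a separate single-subunit polymerase transcribes, all rose, with log2 fold changes between 1.90 (ATP8) and 2.34 (CYTB, implied SE 0.15). Their summed approximate level went from 51714 to 220915 CPM. Every fold change below is a change in share of the library. The median of these mitochondrial messages was log2 2.07, and setting fold changes against it is called mitochondrial scaling below. On that scale 187 genes (3.25%) would still be called higher and 3493 (60.7%) lower, and 135 genes called higher would be called lower. These calls, and the list counts under this scaling below, keep the deposited FDR, which tests against no change on the authors' scale. With p recomputed on the shifted scale, an alternative added after seeing the data, 142 genes were higher and 3825 lower.

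Some of the large changes among genes whose average level reached the median lay outside the gene lists described further on. Listed genes with changes of that size, such as PFKFB4, HSPA8 and KPNA2, are given with their lists. PPFIA4, a liprin scaffold, rose by 5.19 (implied SE 0.25), from about 6.56 to 240 CPM, the cadherin-related CDHR1 by 4.40, the ion channel TRPM5 by 4.30, CERCAM by 4.26, UAP1L1 by 4.22 and AGRN, the proteoglycan agrin, by 4.06. MPV17L2, a mitochondrial protein of ribosome assembly, fell by 4.65, the smooth-muscle actin gene ACTG2 fell by 4.23 (implied SE 0.79), SAC3D1 fell by 4.17 and CCDC86, a nucleolar protein, fell by 4.11. Reads of ACTG2 can overlap with those of other actin genes, so its value is uncertain.

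**Figure D2:**
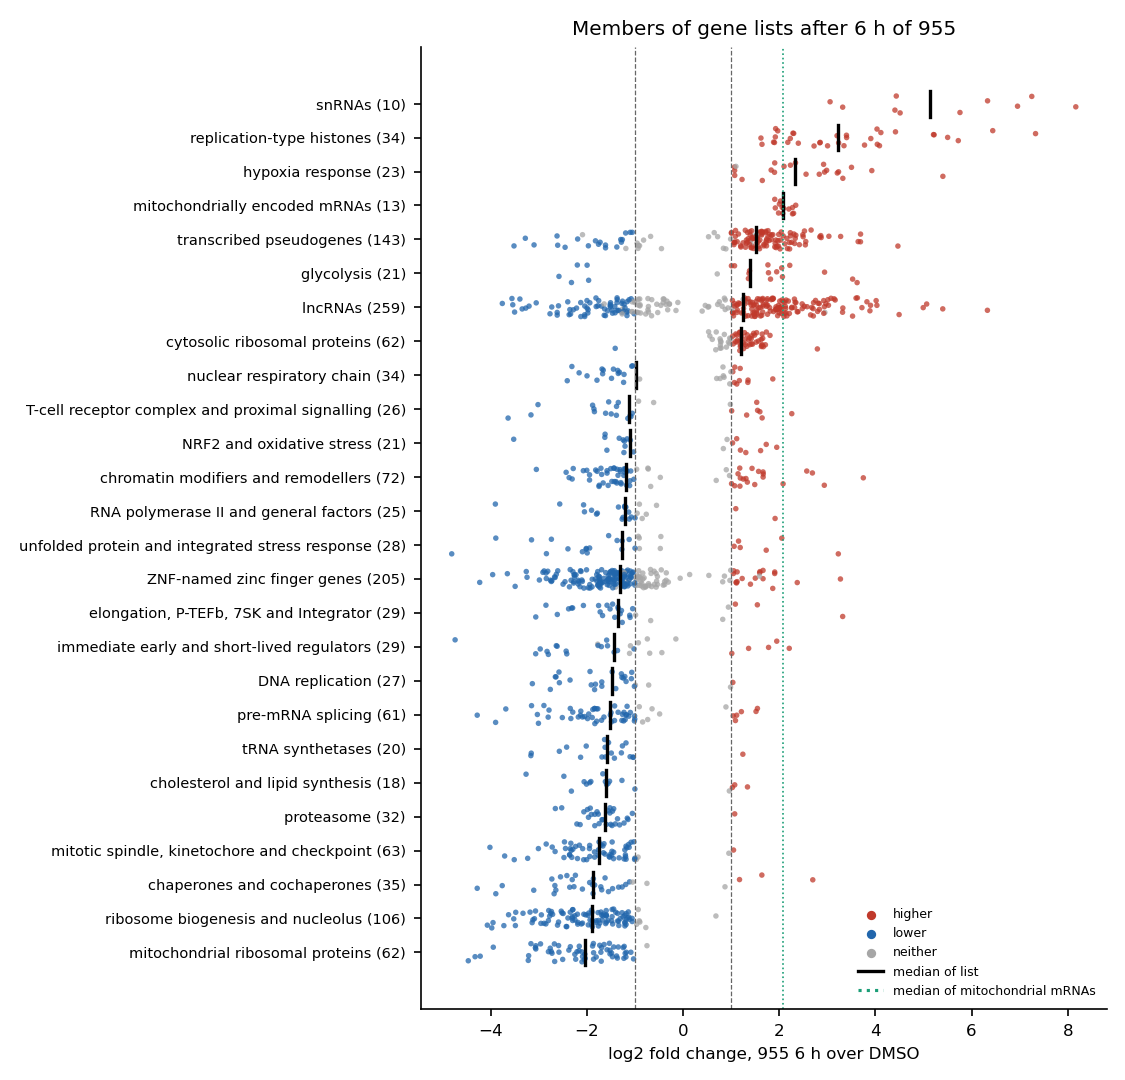
Log2 fold change of 955 at 6 h over DMSO (x axis) for each listed member of 26 gene lists and classes (rows, with the number listed in brackets), coloured by call, with black bars at each list's median. The lists sort into a small upper set of noncoding RNAs, histones, hypoxia genes, mitochondrial messages, glycolysis and cytosolic ribosomal proteins, and a larger lower set led by mitochondrial ribosomal proteins and ribosome biogenesis.

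Short, stable noncoding RNAs were among the largest fitted rises. All 10 listed small nuclear RNAs, the RNA cores of the spliceosome and of the 7SK particle, rose with a median log2 fold change of 5.13, and 9 of them stayed higher under mitochondrial scaling. RNU11, the minor-spliceosome U11 RNA, rose by 8.17 (implied SE 0.70), RNU4-2 by 7.25 and RNU5A-1 by 6.95, while RN7SK, the 7SK RNA itself, rose by 3.32 (implied SE 0.30), from about 3.43 to 34.2 CPM. In DMSO 9 of the 10 were below 1 CPM by the approximate levels. The fitted fold of a gene so close to 0 can depend on a small count added in fitting, so it is not a bound. Of 156 small nuclear RNA genes only these 10 were listed, so a rise in all of them was partly fixed by the selection of listed genes. Of 11 small nucleolar RNAs 6 rose, led by SNORD13 (9.84, implied SE 0.95, FDR 3.08e-08) and the U3 genes SNORD3B-1 (8.18) and SNORD3D (7.68), and 2 fell, SNORD31 at -5.33 and SNORD104 at -3.20. RPPH1, the RNA of ribonuclease P, which trims the 5′ end of transfer RNAs, rose by 4.44 (implied SE 0.30, FDR 2.48e-10). The copies of U3, U4 and U5 genes resemble each other closely, so the division of reads among them is uncertain, and the libraries were made with a messenger RNA kit that is not designed for such short RNAs.

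Among 14 microRNA genes 10 rose and 2 fell (2 and 3 under mitochondrial scaling). MIR3648-1, which lies in the ribosomal RNA precursor, rose by 6.98 (implied SE 0.49), MIR378I by 3.95 and MIR324 by 2.70, whereas MIR25 fell by 2.50 and MIR1914 fell by 1.15. Reads on these loci can also come from the longer transcripts that hold them. Long noncoding RNAs were more often higher than lower, with 141 of 259 higher, 65 lower and a median of 1.25, yet under mitochondrial scaling the split turned to 19 higher and 80 lower. LINC02649 rose by 5.40 and MIR210HG, host of a hypoxia-induced microRNA, by 5.06 (implied SE 0.82), while CARD8-AS1 fell by 3.76 and LINC02273 fell by 3.56. MALAT1, an abundant and stable nuclear RNA that was picked after its value was seen, rose by 3.16 (implied SE 0.49, FDR 0.00105), from about 656 to 5865 CPM. Transcribed pseudogenes went the same way, with 105 of 143 higher, 20 lower and a median of 1.52, which became 5 higher and 32 lower under that scaling. ANKRD20A11P rose by 4.47 and SSR4P1 fell by 3.52. Protein-coding genes were mostly lower, with 1715 of 5270 higher, 2792 lower and a median of -1.08. Whether the counting used strand is not given in the sources used here, so reads of antisense and overlapping genes cannot be assigned with certainty.

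Every replication-type histone in the table rose. These intronless genes are copied in S phase, and their messages end in a stem-loop in place of a poly(A) tail. The libraries were made with a messenger RNA kit, and which forms of these messages the reads come from was not tested. All 34 were called higher, with a median log2 fold change of 3.22. Under mitochondrial scaling 18 of them stayed higher, or 15 with p recomputed on that scale. These 34 are the listed part of 69 such genes. Since listed genes are nearly all past the threshold in some comparison, 34 of 34 was partly fixed by that selection. H3C13 rose by 7.33 (implied SE 0.75, FDR 2.44e-08), H2BC8 by 6.44 (implied SE 1.16), H2AC8 by 5.72 (implied SE 0.64) and H3C8 by 5.50 (implied SE 0.44, FDR 6.14e-10), and the smallest rise was of H4C3 at 1.62. Their levels were low throughout, with 26 of 34 below 1 CPM in DMSO and a summed approximate level of 24.5 CPM in DMSO and 192 CPM after 955, and near-identical coding sequences make the share of each copy uncertain. None of the 4 other listed histone genes was called higher. H2AX, the variant phosphorylated at DNA breaks, fell by 2.91 (488 to 65.1 CPM) and H2AZ1 fell by 1.55, and H3-3A (0.74) and H3-3B (-0.98) passed in neither direction.

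The stem-loop was looked for in the listed histones' GENCODE transcripts as a 16-letter word, and 14 of the 34 held it, in 4 spellings. The 4 words are shown because they mark the tail-less end that sets this gene class apart.
Stem-loop in 8 genes: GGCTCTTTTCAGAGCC
Stem-loop in 4 genes: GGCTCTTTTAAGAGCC
Stem-loop in 1 gene: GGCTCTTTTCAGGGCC
Stem-loop in 1 further gene: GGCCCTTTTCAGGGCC
Promoters of the histones stood apart in letters too. RefSeq promoter windows (GRCh38.p14, 250 bases before to 50 after the start) were at hand for 30 of the 34, and 19 of those (63.3%) held TATAAA on either strand against 9.63% of 15843 windows of protein-coding genes, and 28 (93.3%) held CCAAT on either strand against 36.4%. Their median GC content was 41.8%, against 62.7% over all windows. The window of H3C13, the histone with the largest rise, is printed with its TATAAA and CCAAT words in capitals, the TATAAA word beginning at position -31 from the start.
H3C13 (chr1:149813644-149813943, - strand): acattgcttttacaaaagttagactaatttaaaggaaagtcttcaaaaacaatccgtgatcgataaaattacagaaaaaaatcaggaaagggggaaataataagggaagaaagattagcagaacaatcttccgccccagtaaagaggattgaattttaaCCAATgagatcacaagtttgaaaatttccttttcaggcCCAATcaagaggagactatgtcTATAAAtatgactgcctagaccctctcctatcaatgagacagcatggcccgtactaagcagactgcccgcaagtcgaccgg

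Genes of the hypoxia response rose together. In low oxygen the factor HIF1 binds short ACGTG words and raises genes for glucose use, pH control, collagen modification and mitophagy. Of 23 listed hypoxia genes 22 rose and none fell, with a median of 2.34, and EGLN1, a prolyl hydroxylase that marks HIF1 for destruction, was at 1.10 without passing. LDHA, also a HIF1 target, was counted under glycolysis and not in this list, and it fell. At 1 h the same list had a median of 0.04, and 22 of the 23 were higher at 6 h than at 1 h in the approximate contrast of the 2 times. PFKFB4, which makes the activator of phosphofructokinase, rose by 5.40 (implied SE 0.74, FDR 0.000473), from about 4.54 to 192 CPM, and stood at -0.08 at 1 h and 5.58 with SNS-032. STC2, a secreted calcium regulator, rose by 3.92 (implied SE 1.10, FDR 0.0269), P4HA1, a collagen prolyl hydroxylase, by 3.50 (implied SE 0.53; 24.1 to 273 CPM) and CA9, the membrane carbonic anhydrase, by 3.32 (implied SE 0.81, FDR 0.014). The growth factor gene VEGFA, named after its value was seen, rose by 3.23, and the mitophagy receptors BNIP3 and BNIP3L by 2.83 (implied SE 0.66) and 2.56. Under mitochondrial scaling 6 of the 23 stayed higher and 2 became lower, or 4 and 2 with p recomputed on that scale.

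The hypoxia genes also had a wide spread. The median implied standard error of the list was 0.330, against 0.237 over all listed genes. The denominator degrees of freedom recovered from F and p were under 10, close to the 8 that 12 samples in 4 groups leave, for 11 of the 23, against 201 of all listed genes (3.49%), while the most common value was 23.3. The part of sample spread in this result was not tested, since no values of single samples were analysed.

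The P4HA1 window, printed 5′ to 3′ on the gene's own strand, holds ACGTG on its opposite strand, with its first printed base at -86 from the start, where the capitals read CACGT. Of 18 hypoxia genes with a window 9 (50%) held ACGTG on either strand, against 23.7% of all windows, but so did 44 of 88 windows of the ribosome biogenesis genes (50%), and 28.6% of genes called lower held it against 24.5% of those called higher. ACGTG is part of the longer word CACGTG, the E-box described further on. The 34 ribosome biogenesis windows with that E-box are therefore among the 44. The word ACGTG is thus not particular to the hypoxia genes, and it was added to the search after the values were seen.
P4HA1 (chr10:73096817-73097116, - strand): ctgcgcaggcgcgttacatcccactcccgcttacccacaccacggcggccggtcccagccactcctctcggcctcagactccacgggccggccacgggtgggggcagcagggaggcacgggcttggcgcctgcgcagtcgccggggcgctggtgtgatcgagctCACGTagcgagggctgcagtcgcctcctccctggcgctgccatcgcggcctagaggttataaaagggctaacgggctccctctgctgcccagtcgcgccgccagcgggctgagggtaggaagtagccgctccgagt

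Glycolysis followed in part. Of 21 listed glycolytic genes 15 rose, 5 fell and the median was 1.38, but under mitochondrial scaling 2 were higher and 8 lower. The enolases ENO3 and ENO2 rose by 3.62 and 3.52 (ENO2 from about 75.7 to 871 CPM), PDK1, which shuts pyruvate out of the citric acid cycle, rose by 2.94 (implied SE 0.45) and PFKL, the liver-type phosphofructokinase, by 2.22. LDHA, which turns pyruvate into lactate and is itself a textbook HIF1 target, fell by 2.58 (implied SE 0.60, FDR 0.0106), from about 806 to 134 CPM, SLC16A1, the lactate carrier, fell by 2.32 and PDHB, a pyruvate dehydrogenase subunit, fell by 2.20. Citric acid cycle genes fell in 8 of 10 cases (median -1.22), with fumarase FH at -2.55.

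The ribosome was split by compartment and by role. Of 62 listed cytosolic ribosomal protein genes 44 rose and 1 fell, with a median of 1.20, although none of the 62 stayed higher under mitochondrial scaling and 20 became lower. RPLP1, a stalk protein, rose by 1.73 (implied SE 0.12), from about 909 to 3014 CPM, and RPL36A fell by 1.41. Processed copies of ribosomal protein genes are common in the genome, so some of these reads could belong to copies. Of 62 listed mitochondrial ribosomal protein genes, encoded in the nucleus, 61 fell and none rose, with a median of -2.05. MRPS12 fell by 4.47 (implied SE 0.25, FDR 2.48e-12), from about 28.6 to 1.29 CPM, MRPS23 was at -4.33, MRPL58 at -4.22 (implied SE 0.73) and MRPS18A at -3.95 (implied SE 0.60).

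Ribosome assembly genes fell, with 100 of 106 listed genes of ribosome biogenesis and the nucleolus lower, none higher and a median of -1.90. GRWD1, a chaperone of a ribosomal protein, fell by 4.07 (implied SE 0.36; 50.2 to 2.98 CPM), NGDN was at -3.98, BRIX1, a factor of the large subunit, at -3.96 (implied SE 0.32, FDR 4.52e-08) and NIFK at -3.73, followed by NOL7 at -3.63 (implied SE 0.25), chosen after its value was seen. RNA polymerases I and III, which make ribosomal and transfer RNA, lost 23 of 29 listed genes, with POLR3B at -3.88, the factor BRF2 at -3.77 (already lower at 1 h, -1.85) and POLR1G at -3.07. Translation factors fell in 19 of 25 cases (median -1.58), among them EIF2B2 at -2.84 and the ribosome-splitting ABCE1 at -2.24. Aminoacyl-tRNA synthetases, with their scaffold proteins, fell in 19 of 20, with FARSA at -3.17 and AIMP2 at -3.16.

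The promoters of these falling sets shared one word and differed in others. The palindromic E-box CACGTG, bound by MYC with its partner MAX, was in 34 of 88 windows of ribosome biogenesis genes (38.6%), against 8.88% of all windows, and in 0 of 30 histone windows. The YY1 core AAGATGG was in 18 of 55 windows of mitochondrial ribosomal proteins (32.7%), against 6.4% of all, 15.9% of ribosome biogenesis windows and 21.4% of proteasome windows. The ETS core CCGGAAG was in 41.8% of mitochondrial ribosomal protein windows and 42% of ribosome biogenesis windows, against 14.2% of all, and also in 40.2% of ZNF and 35.7% of proteasome windows. It was in 26.2% of lower genes, 20.4% of genes called neither and 11.5% of higher genes, yet in 34.7% of windows of the cytosolic ribosomal proteins, most of which were higher. NOL7 and MRPS12 are shown as members of the first and second set, with the E-box (first base at -149 from the start) and the YY1 core (first base at -211, on the opposite strand) in capitals. A match is a description of the letters and no evidence that a factor binds.
NOL7 (chr6:13615085-13615384, + strand): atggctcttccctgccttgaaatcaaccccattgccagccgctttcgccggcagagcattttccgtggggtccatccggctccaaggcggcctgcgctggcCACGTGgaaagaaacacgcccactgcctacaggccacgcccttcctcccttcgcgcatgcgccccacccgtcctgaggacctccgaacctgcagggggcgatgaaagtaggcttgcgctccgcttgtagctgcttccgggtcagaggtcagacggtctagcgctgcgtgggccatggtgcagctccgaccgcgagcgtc
MRPS12 (chr19:38930694-38930993, + strand): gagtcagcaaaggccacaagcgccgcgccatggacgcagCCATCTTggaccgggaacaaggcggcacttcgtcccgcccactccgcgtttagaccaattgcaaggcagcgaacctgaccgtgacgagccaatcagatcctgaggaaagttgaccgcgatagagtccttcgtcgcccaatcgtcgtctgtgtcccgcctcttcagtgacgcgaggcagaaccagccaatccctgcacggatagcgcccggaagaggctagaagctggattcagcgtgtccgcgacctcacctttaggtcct

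**Figure D3:**
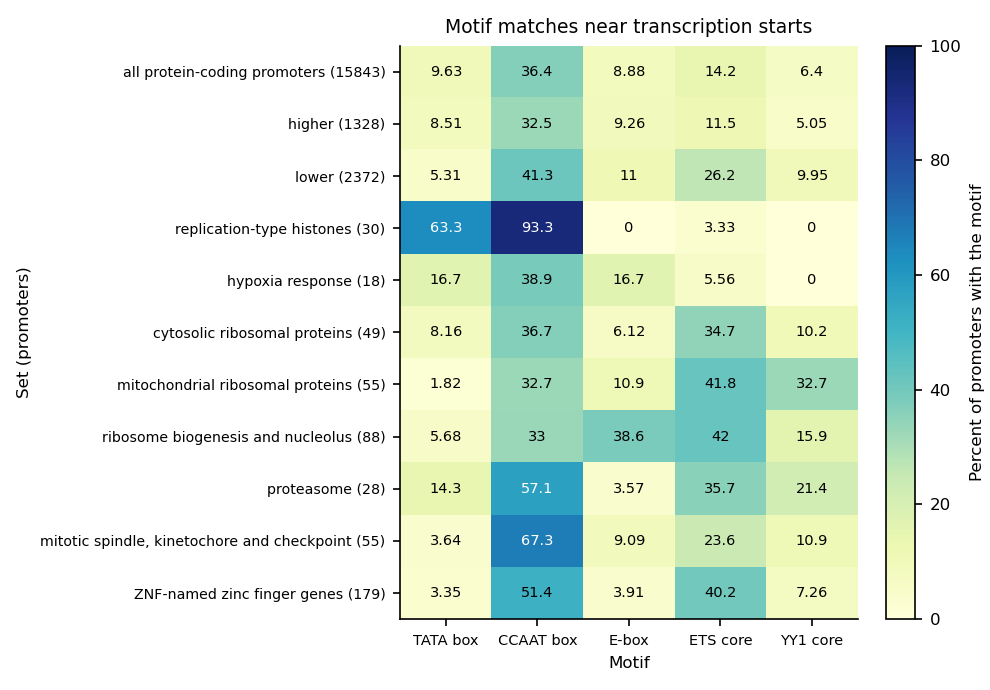
Percent of promoter windows (250 bases before to 50 after the start, RefSeq) that hold each motif word on either strand, for all protein-coding genes, genes called higher and lower, and 8 gene lists, with the number of windows in brackets. The TATA box and CCAAT box stand out in the histones, the E-box in ribosome biogenesis and the YY1 core in mitochondrial ribosomal proteins.

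Most of the listed machinery of transcription and RNA processing fell, where 50.1% of all listed genes were lower. Of 25 listed genes of RNA polymerase II and its general factors 18 fell and 2 rose (median -1.21), with GTF2B, the factor that positions the polymerase at the start, at -3.91 (implied SE 0.47) and GTF2A1 at -2.57. Mediator, the bridge between activators and polymerase, lost 14 of 20, with MED19 at -3.25 and MED18 at -3.02. Among 29 genes of elongation, P-TEFb, 7SK and Integrator 22 fell and 3 rose. CCNT1, the cyclin partner of CDK9, fell by 1.31 (implied SE 0.22, FDR 0.000121), PAF1 and CTR9 of the PAF complex were at -3.07 and -2.62, and the Integrator subunit INTS5 was at -2.86, after -1.79 at 1 h, while 7SK was among the 3 that rose. CDK9 itself, CCNT2, HEXIM1 and POLR2A were not analysed here. Splicing genes were lower in 49 of 61 cases (median -1.52), among them DDX20 (-4.28), PRPF4 (-3.90) and BCAS2 (-3.69, implied SE 0.22). The list of 3′ processing and export was lower in 34 of 46 and higher in 4, with the cleavage factor CSTF1 at -2.99 and the export factor NXT1 at -2.82. It also holds the importin KPNA2, a factor of nuclear import, which had its largest fall (-4.21, implied SE 0.22, 597 to 32.4 CPM). Decay factors were lower in 31 of 38, with the exosome subunits EXOSC4 and EXOSC3 at -3.26 and -3.21 and the m6A reader YTHDF2 at -2.91.

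Cell division genes fell broadly. Of 63 listed genes of the spindle, kinetochore and mitotic checkpoint 59 fell and 1 rose, with a median of -1.75. PLK1, the polo-like kinase of mitotic entry, fell by 4.02 (implied SE 0.15, FDR 7.33e-15), from about 382 to 23.5 CPM, CDC20, which activates the anaphase-promoting complex, was at -3.51 (415 to 36.3 CPM), HAUS8 at -3.71 and AURKA at -3.24. Among 34 cyclin and cyclin-dependent kinase genes 22 fell (64.7%) and 6 rose (17.6%), against 50.1% and 35.2% of all listed genes. The mitotic cyclins CCNB1, CCNA2 and CCNB2 were at -3.97 (implied SE 0.33), -3.65 and -3.49, CCND2, a G1 cyclin, rose by 3.67 (implied SE 0.61), and the inhibitor CDKN1B fell by 2.22 (implied SE 0.28) after -2.16 at 1 h. DNA replication genes fell in 23 of 27 (median -1.48), with the sliding clamp PCNA at -3.14 (implied SE 0.15), GINS3 at -2.76 and the licensing factor CDC6 at -2.65. These 3 lists fell while the replication-type histones rose in the same samples.

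DNA repair was lower in 24 of 36 (66.7%) and higher in 6 (16.7%), against 50.1% and 35.2% of all listed genes. DCLRE1B, a telomere nuclease, was at -4.21, NHEJ1 at -3.08 and the glycosylase NEIL1 at 2.69. Chromatin regulators stood closer to the shares over all listed genes. Of 72 listed, 20 rose (27.8%) and 44 fell (61.1%), with a median of -1.20, and under mitochondrial scaling 1 was higher and 51 lower. The Polycomb protein PCGF2 rose by 3.75, the deacetylase HDAC5 by 2.94, the demethylase KDM7A by 2.69 and the remodeller CHD3 by 2.57, while the methyltransferase PRMT6 fell by 3.05 and the acetyltransferase KAT5 fell by 2.44.

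Most genes of protein quality control fell. Of 32 listed proteasome genes 31 fell and 1 rose, PSME1 at 1.07, with a median of -1.64, and the catalytic subunit PSMB5 fell by 2.66 and the deubiquitinase PSMD14 fell by 2.53. Cullin ligases and their receptors include the enzymes that degrader molecules recruit. They fell in 29 of 44 cases (65.9%, against 50.1% of all listed genes) and rose in 6, with CUL2 at -2.44. Chaperones fell in 29 of 35 and rose in 3 (median -1.88). HSPA8, the constitutive HSP70, fell by 4.29 (implied SE 0.37, FDR 1.57e-05), from about 1805 to 92.6 CPM, the endoplasmic reticulum chaperone HSPA5 fell by 3.90 (implied SE 0.51) and DNAJA1 fell by 3.76, and HSF4, a heat shock factor, rose by 2.70. Denominator degrees of freedom were under 10 for 8 of the 35 chaperones. The unfolded protein and integrated stress responses were lower in 17 of 28 (60.7%, against 50.1% of all listed genes) and higher in 6. XBP1, the factor made by IRE1 splicing, fell by 4.82 (implied SE 0.45, FDR 6e-06; 54.3 to 1.93 CPM), SDF2L1 was at -3.16 and MANF at -2.85, while VLDLR rose by 3.23 and ASNS, the asparagine synthetase, was at 2.05.

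KEAP1, the adaptor that sends NRF2 for degradation, fell by 3.53 (implied SE 0.24, FDR 2.33e-10), from about 55.2 to 4.79 CPM, and NFE2L2, the gene of NRF2, fell by 1.25. Of 21 genes in the NRF2 and oxidative stress list 7 rose (33.3%) and 12 fell (57.1%), near the 35.2% and 50.1% of all listed genes. Those counts became 0 and 15 under mitochondrial scaling. SLC7A11, the cystine carrier, rose by 1.73. In metabolism, cholesterol synthesis fell in 14 of 18 and rose in 3 (SQLE -3.27, MVK -2.48, NSDHL -2.33), and nucleotide and one-carbon synthesis fell in 14 of 17 with none higher (UMPS -2.29, GMPS -1.93). Of 34 nuclear genes of the respiratory chain 9 were higher and 17 lower (0 and 26 under mitochondrial scaling), which is 50% lower against 50.1% over all listed genes, with a median of -0.98. NDUFS4 of complex I fell by 2.41 and UQCRFS1 of complex III fell by 2.32. Mitochondrial transcription and import genes fell in 26 of 34, SLIRP, which stabilises mitochondrial messages, among them (-3.56), and POLG, the mitochondrial DNA polymerase, rose by 2.13.

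Of 26 listed genes of the T-cell receptor complex and its proximal signalling 7 rose and 16 fell (61.5%, against 50.1% of all listed genes; median -1.13), which became 0 and 19 under mitochondrial scaling. IL7R, the interleukin 7 receptor, fell by 3.64, CD2, an adhesion receptor, was at -3.17 (implied SE 0.18), RAG2, a recombinase subunit, was at -3.02, and CD4 rose by 2.26 (implied SE 0.43). These T-cell genes were measured in the line that the labels call T lymphoblast. Of the marker lists for other cells 0 of 15 myeloid, 4 of 14 B-cell, 2 of 13 erythroid and megakaryocyte, 1 of 11 NK and 2 of 12 epithelial and fibroblast genes were listed. Their summed approximate levels in DMSO were 38.2 CPM for the B-cell genes and 10.6 CPM or less for each of the other lists with a gene. Listed genes are nearly all past the threshold in some comparison, so an unlisted marker can be expressed and unchanged. The counts and sums of markers therefore say nothing about cell identity. Of 12 transcription factors of T-cell leukaemia 8 fell (66.7%) and 3 rose (25%), with GATA3 at -1.49 (implied SE 0.32) after -1.38 at 1 h and ETS2 at -2.71 after -1.01. In the NOTCH list 5 rose and 6 fell of 12, near the overall shares (1 and 6 under mitochondrial scaling), with HES7 at 6.50, the ligand JAG2 at 2.41 and NOTCH2 at -1.29. By the approximate levels 2 of these 12 were below 1 CPM in DMSO.

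Signalling lists stood near the shares over all listed genes, 50.1% lower and 35.2% higher, so their counts say nothing particular about them. NF-kB genes fell in 7 of 15 (46.7%) and rose in 3, with the inhibitor NFKBIA at -2.87, after -1.79 at 1 h, and RELA at -2.41. Interferon and innate immunity genes fell in 16 of 29 (55.2%) and rose in 10 (17 and 0 under mitochondrial scaling), and PI3K and mTOR genes fell in 10 of 21 (47.6%) and rose in 6, with PIK3R1, the regulatory subunit, at -3.13. Apoptosis genes fell in most cases. Of 10 BCL2-family genes 7 fell (70%) and 2 rose (20%). MCL1, the short-lived survival protein often used as a readout of CDK9 inhibition, fell by 1.02 (implied SE 0.16), and stood at -0.99 at 1 h and -1.67 with SNS-032. BCL2L1 fell by 1.30 and BNIP1 fell by 2.56. Caspases, death receptors and their inhibitors fell in 9 of 12, with the adaptor FADD at -2.92, and TRAF1 rose by 3.28.

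Immediate early and short-lived regulators fell in 16 of 29 cases (55.2%, against 50.1% of all listed genes) and rose in 5, with a median of -1.44, and 10 of the 29 were already lower at 1 h (median -1.19). MYC fell by 3.07 (implied SE 0.29), from about 432 to 51.5 CPM, with -1.03 at 1 h. ID3, an inhibitor of basic helix-loop-helix factors, fell by 4.74 and the phosphatase DUSP1 fell by 2.97. FOSL2, an AP-1 subunit, had fallen by 1.31 at 1 h and was higher by 1.78 at 6 h (-0.30 under mitochondrial scaling). Zinc finger genes named ZNF moved early as well. At 6 h 138 of 205 were lower (67.3%) and 18 higher, with a median of -1.32. Among all listed protein-coding genes 53% were lower at 6 h, with a median of -1.08. At 1 h 83 of the ZNF genes were lower with a median of -1.01, when 7.71% of all listed genes were lower. ZNF583 fell by 4.23 and ZNF627 fell by 3.96 at 6 h, and ZNF467 rose by 3.27.

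Gene structure was taken from GENCODE 29 for 5263 of the 5270 listed protein-coding genes. Genes called higher had a median of 10 exons and a spliced GC content of 55.1%, and genes called lower 6 exons and 47.4%. The share called higher was 45.5% among genes with over 10 exons and 22.6% among those with 2 to 4, and it was 55.2% where GC exceeded 60% against 22.3% between 40% and 50%. Among transcripts under 1 kb 61.2% of 165 were higher. The histones, ribosomal proteins and mitochondrial messages described above were not taken out of these groups. Exon number and GC were not exchangeable: within genes under 50% GC 15.6% of those with 1 to 4 exons and 32.8% of those with over 10 were higher, and at 50% GC or more the shares were 31.6% and 58.4%. Average level differs between these groups, and within genes at or above the median level the shares were 26.5% and 37.7%, and below it 22.1% and 59.8%. No test was made, and the part of level, length or GC in the measured fold changes was not tested.

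**Figure D4:**
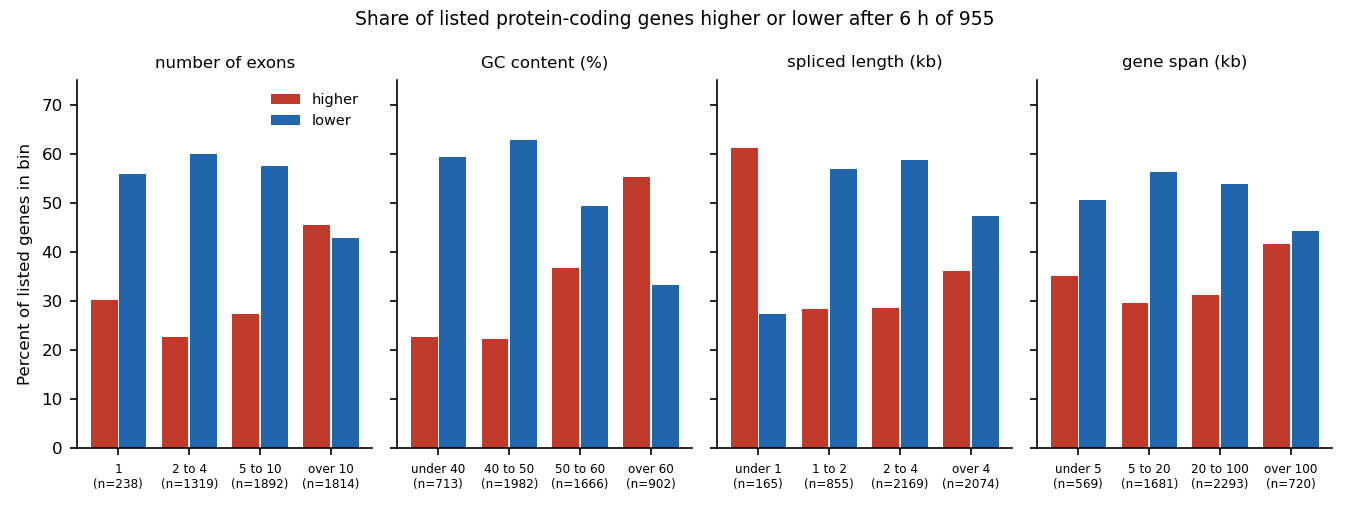
Percent of listed protein-coding genes called higher (red) or lower (blue) after 6 h of 955 (y axis), by number of exons, GC content, spliced length and gene span, with the number of genes in each bin. The higher share was 45.5% above 10 exons, 55.2% above 60% GC and 61.2% in transcripts under 1 kb.

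The comparison with SNS-032 at 6 h at 1 µM, which shares the DMSO samples, was made as an approximate contrast of the deposited fold changes. Of 5759 genes 49 were higher (0.851%) and 15 lower (0.26%) with 955 than with SNS-032 at an adjusted p under 0.05 and a difference of at least 1, and under mitochondrial scaling the counts were 170 and 11. The doses differ, so the values are set side by side and no statement about relative strength follows. Of the 49, 39 were lower than DMSO under 955, so they had fallen less than with SNS-032. BRIX1 was at -3.96 with 955 and -5.34 with SNS-032 (difference 1.39), BCAS2 at -3.69 and -5.24 (1.55), NXT1 at -2.82 and -4.43 (1.61), PCNA at -3.14 and -4.21 (1.07) and the kinase PIM3 at -2.81 and -4.09 (1.29). Among the 15 lower with 955, 3 had risen with 955, all noncoding RNAs below 1 CPM in DMSO by the approximate levels. SNORD3A, a U3 gene, rose by 5.22 (implied SE 0.22) with 955 and 7.0 with SNS-032 (difference -1.79), RPPH1 rose by 4.44 and 6.07 (difference -1.64), and RNU4ATAC, a minor-spliceosome RNA named after its value was seen, rose by 4.51 and 6.90 (difference -2.39).

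**Figure D5:**
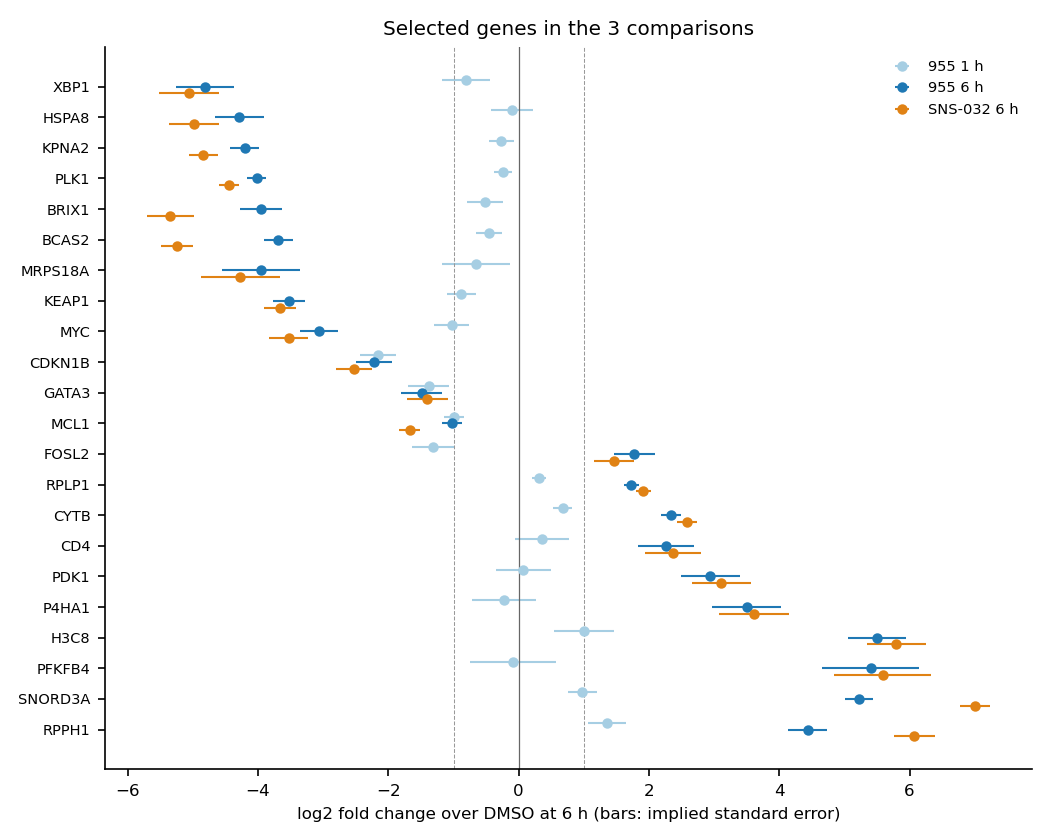
Log2 fold change over DMSO at 6 h (x axis) of 22 genes after 955 for 1 h, 955 for 6 h and SNS-032 for 6 h, with bars for the implied standard error. CDKN1B, GATA3 and MCL1 lie at about the same place at 1 h and 6 h of 955, most other genes moved after 1 h, and FOSL2 lies on opposite sides of 0 at the 2 times.

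Against 1 h of 955, 1555 genes (27%) were higher and 2053 (35.6%) lower at 6 h in the approximate contrast, which became 205 and 3344 under mitochondrial scaling. On the authors' scale the later rises covered 33 of 34 replication-type histones, 22 of 23 hypoxia genes, all 13 mitochondrial messages and 10 of 10 small nuclear RNAs, and the later falls 85 of 106 ribosome biogenesis genes, 57 of 62 mitochondrial ribosomal proteins, 31 of 32 proteasome genes and 28 of 35 chaperones. Of the 205 ZNF genes 42 were lower and 21 higher at 6 h than at 1 h.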

How the data were processed

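RNA of 12 MOLT4 samples (4 groups of 3) was sequenced from libraries of a BGI messenger RNA kit, per the labels' protocols. The submitters' processing notes name DESeq2 and the build hg38; the aligner and counter are not given in the sources used here. The 1 deposited table holds, per the file headers, a logFC (read as log2), an average logCPM (read as log2 CPM), an F statistic (a score), a p-value and an FDR for each of 3 comparisons with DMSO. That layout is one of an F test, so which tool made the values is not settled here. The authors' deposited log2 values, F scores and p-values were used as given, and the table holds 0 columns of single samples, so no depth, no count test and no interval per sample was possible.

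Gene identifiers were matched to RefSeq (GRCh38.p14; 5727 of 5759). Dividing the size of a log2 change by the root of its F gave the implied standard error. The approximate contrasts with SNS-032 and with 1 h divide the difference of 2 fold changes by the root mean square of their implied standard errors, with degrees of freedom solved from F and p and Benjamini-Hochberg adjustment over all 5759 genes. Simulated data held 5759 genes with 200 changed by 2 on the log2 scale. There this contrast called 96% of the changed genes, and 0.518% of its calls were unchanged genes. Each simulated gene had the same spread in all groups, so the contrast equals the direct test by construction. Its behaviour where the implied standard errors of a gene differ between comparisons was not tested. Approximate group CPM takes the average level as the log2 of the mean over 4 equal groups. In simulated counts built on that same assumption the median error was 0.13 (log2). It covers 5026 genes with every group mean of at least 20 counts. Whether the deposited average follows the assumption, and the error at lower counts, were not tested. Gene structure came from GENCODE 29. Python 3.11.15, pandas 2.3.3, scipy 1.17.1 and matplotlib 3.10.9 were used.

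The comparison, the gene lists and their members were chosen with earlier results of these data known, so a list's count is a description; no list was tested. The text names the largest rises and falls among called genes at or above the median level and within each list or noncoding class, any member of lists of 12 or fewer, and a set of key genes; others are said to be chosen after their values were seen. Alternatives were other FDR and fold bounds, a level filter, mitochondrial scaling and the larger standard error. A few results that involve withheld items are not reported here.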

Additional observations from a re-analysis of the deposited data

Results flagged for a closer look

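The 2 times of 955 differed in sign for 2 genes called in opposite directions after 1 h and 6 h of 955, of 373 genes called at both times. FOSL2 was at -1.31 at 1 h and 1.78 at 6 h, a difference of 3.09 (SE 0.32), and under mitochondrial scaling its 6 h value was -0.30. TRA-TGC4-1, an alanine transfer RNA gene named after its values were seen, was at -5.81 at 1 h and 4.58 at 6 h, a difference of 10.38, and at 4.56 with SNS-032. The messenger RNA kit is not designed for such short RNAs, so the size of these folds is uncertain.

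In the approximate contrast of the 2 times, 1555 genes were higher and 2053 lower at 6 h. In that with SNS-032, 49 were higher and 15 lower with 955 at 6 h. The DMSO samples at 6 h serve both times, so handling time and exposure time cannot be told apart at 1 h.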

How the results depend on the processing

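No paired analysis was possible because the deposited table holds comparisons and no values of single samples; for the same reason leaving out each replicate, and edgeR or DESeq2 on counts, were not run. The 4911 calls became 1622 (712 higher, 910 lower) with a log2 bound of 2, 4463 with an FDR under 0.01, 5384 with no fold bound and 4564 with an average level of at least 1. Under mitochondrial scaling 187 were higher and 3493 lower, and with p recomputed on that scale, an alternative added after seeing the data, 142 and 3825. This scaling shifts every gene by 2.07, which by construction turns small rises negative: ASNS -0.020, ATP8 -0.17, FOSL2 -0.30, H3-3A -1.33, H4C3 -0.45, PSME1 -1.0, RPLP1 -0.34 and SLC7A11 -0.34. It took the SNS-032 contrast from 64 calls to 181 (higher from 49 to 170) and the 1 h contrast to 205 higher and 3344 lower. Over the union of the lists, 1953 calls became 676 with the log2 bound of 2; that bound left 14 of 22 hypoxia genes, 27 of 34 histones, 47 of 100 ribosome biogenesis genes, 33 of 61 mitochondrial ribosomal proteins, 24 of 59 mitotic genes, 15 of 29 chaperones and 5 of 31 proteasome genes. Unknown depth limits the values of genes near 0 CPM.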

Other observations

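Solute carriers, the membrane transporters of the SLC families, had 33 of 91 listed genes higher (36.3%) and 37 lower (40.7%), against 35.2% and 50.1% of all listed genes, and under mitochondrial scaling 2 were higher and 51 lower. The creatine carrier SLC6A8 rose by 3.70, and SLC22A16, a carnitine carrier, fell by 5.23, both from low levels. Of 167 listed protein-coding genes on chromosome X 43.7% were higher and 43.1% lower, against 32.5% and 53% of all listed protein-coding genes, and the median log2 fold change was -0.25 against -1.08.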
